A study of Mus musculus with 9 samples.

Results

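The insulin-like growth factor (IGF) genes described here were Igf1 and Igf2 (the ligands), Igf1r and Igf2r (the receptors) and Igfbp2, Igfbp3, Igfbp4, Igfbp5, Igfbp6 and Igfbp7 (the binding proteins). These 10 genes were chosen by symbol, and each symbol matched 1 Ensembl identifier among the 46078 genes listed for the cultured cells and the 38293 listed for the tissue. Expression was measured by RNA-seq in 9 mouse C57BL/6 libraries. They comprised gastrocnemius muscle (GAS, 3 libraries) from female control mice aged 8 to 12 weeks (C57Bl6/J in the study's methods), and primary myoblasts (MB, 2 libraries) grown with 10% horse serum, 20% fetal bovine serum and 10 ng/ml basic FGF. They also comprised myotubes (MT, 2 libraries), made by keeping such myoblasts for 3 days in medium with 2% horse serum and no added basic FGF, and myoblasts given 10 mM sodium-L-lactate (MB + lactate, 2 libraries). The lactate was dissolved in PBS, which the control cultures also received, and the 2 MB libraries are the controls of the lactate-treated ones as well as the reference for MT. The labels name no transgene or deletion in any group, and the animals that the myoblasts came from are described by strain alone. The labels call the libraries biological replicates without saying whether these were separate animals or cultures, so the p-values measure the spread between these libraries only.

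IGF1 and IGF2 are small secreted hormones related to insulin. Both signal through the receptor tyrosine kinase IGF1R to IRS adaptors, PI3K, Akt and mTOR, which promotes growth, survival and, in muscle precursors, both proliferation and differentiation. IGF2R, also known as the cation-independent mannose-6-phosphate receptor, takes IGF2 into the cell for degradation and carries lysosomal enzymes. The IGF binding proteins hold the ligands outside the cell and can block or prolong their action, and proteases that cut them set the ligand free.

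The 250 bases before the RefSeq start of 4 genes are shown (GRCm38.p6, each on the strand of its gene, 5′ to 3′): Igf1 and Igfbp4 as members that were higher in MT than in MB, and the neighbours Igfbp2 and Igfbp5, which moved in opposite directions. Capitals mark CAGCTG or CACCTG, core sequences that MyoD family and other bHLH proteins can bind, and TATAAA, the TATA box core, each searched on both strands.
Igf1, chr10:87860861-87861110, plus strand: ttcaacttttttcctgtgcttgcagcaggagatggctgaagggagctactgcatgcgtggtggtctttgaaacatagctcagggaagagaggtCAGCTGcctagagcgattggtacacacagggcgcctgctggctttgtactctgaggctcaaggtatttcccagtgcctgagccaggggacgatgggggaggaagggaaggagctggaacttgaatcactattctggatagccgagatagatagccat
Igfbp4, chr11:99040994-99041243, plus strand: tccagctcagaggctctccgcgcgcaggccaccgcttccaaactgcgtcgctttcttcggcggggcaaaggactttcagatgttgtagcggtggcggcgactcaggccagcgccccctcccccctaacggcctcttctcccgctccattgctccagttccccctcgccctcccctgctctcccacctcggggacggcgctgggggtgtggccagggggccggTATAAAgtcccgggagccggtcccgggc
Igfbp2, chr1:72824230-72824479, plus strand: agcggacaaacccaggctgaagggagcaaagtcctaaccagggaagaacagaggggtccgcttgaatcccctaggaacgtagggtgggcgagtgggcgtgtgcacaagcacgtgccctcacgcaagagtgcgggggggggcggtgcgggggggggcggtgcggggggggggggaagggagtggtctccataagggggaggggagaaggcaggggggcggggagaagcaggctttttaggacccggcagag
Igfbp5, chr1:72874866-72875115, minus strand: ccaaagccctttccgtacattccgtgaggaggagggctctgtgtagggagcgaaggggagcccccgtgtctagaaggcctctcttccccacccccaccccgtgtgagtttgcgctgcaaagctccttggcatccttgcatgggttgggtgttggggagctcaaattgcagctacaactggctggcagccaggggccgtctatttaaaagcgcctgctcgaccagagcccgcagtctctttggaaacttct
Igf1 held CAGCTG, with its first base 157 bases before the start, a motif found in 13.0% of 32851 RefSeq promoter windows of this length. Igfbp4 held TATAAA starting 28 bases before the start, a motif found in 12.4% of the windows. The stretches printed for Igfbp2 and Igfbp5 held none of the 3. Among the other members, CACCTG stood in the windows of Igf2r and Igfbp3 (17.2% of all windows held it) and TATAAA in that of Igfbp6. No match says only that these letters were not in the window, and members such as Igf2, with 4 RefSeq starts, have further promoters.

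In the GENCODE annotation of GRCm38, the build of the authors' alignment (mm10), Igf1 spans chr10:87858265-87937042 and Igf2 chr7:142650766-142666816. Igf1r spans chr7:67952827-68233668 and Igf2r chr17:12682406-12769664. Among the binding proteins, Igfbp2 spans chr1:72824503-72852474, Igfbp5 chr1:72857932-72874884, Igfbp3 chr11:7206086-7213923, Igfbp4 chr11:99041244-99054392, Igfbp6 chr15:102144362-102149511 and Igfbp7 chr5:77349240-77408041. The 10 genes thus lie on 7 chromosomes, and Igfbp2 and Igfbp5 are close neighbours. They lie tail to tail on chromosome 1, with 5457 bp and no annotated gene between them. Igfbp3 lies in the same way beside Igfbp1 on chromosome 11, at a distance of 3539 bp. Igf2 and H19, the noncoding RNA of the same imprinted domain, lie 72622 bp apart on chromosome 7. Igf2 shares 98 exonic bases with its antisense gene Igf2os, and Igfbp7 shares 85 with Polr2b on the other strand. Whether strand was used in counting is not stated, and without it reads in these stretches cannot be assigned to either gene. Igf2 also shares 3596 exonic bases with the gene model Gm49394, which the count files did not list.

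The libraries held 5198247 to 10839516 counts in the cultured cells and 19307793 to 19941574 in GAS, where 3 counts correspond to 0.277 to 0.577 and 0.150 to 0.155 CPM (counts scaled to the library total). MT replicate 1 had a count for 28599 genes, against 15548 to 17965 in the other cultured libraries. In replicate 1 of MB and of MB + lactate, 9.20% and 13.8% of counts fell on a ribosomal RNA gene, CT010467.1, compared with 0.131% to 0.575% elsewhere among the cultured libraries. The myoblast markers Pax7, Myf5, Myod1 and Des each had a mean above 1 CPM in MB, as they also did in MB + lactate, MT and GAS. Of these, only Pax7 was called lower in MT (log2 fold change -4.11, adjusted p = 0.00224, edgeR). Des had a log2 fold change of 2.05 and was not called. All 5 markers of differentiating muscle (Myog, Mymk, Myh3, Acta1 and Ckm) were called higher in MT. Among them Ckm, with 4 and 3 counts in MB, met the filter on low counts through its MT libraries only, so its call is given as a value. GAS was sequenced from a poly(A) library and the cultured cells from Smart-seq2 libraries, so levels in GAS are set beside the others without a test.

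The comparison of MT with MB asks how the IGF genes differ between dividing myoblasts and the multinucleated cells they fuse into. Both ligands were higher in MT, Igf1 by 131-fold and Igf2 by 29.8-fold, while neither receptor gene passed the test. The binding proteins split: Igfbp4, Igfbp5 and Igfbp7 were higher in MT, Igfbp2 was lower, and Igfbp3 and Igfbp6 did not pass. Of the 10 members, all tested, 5 were called higher (11.0% of the 12921 genes tested were) and 1 was called lower (6.86% of genes). The call was an adjusted p under 0.05 with an absolute log2 fold change over 0.5 in edgeR's quasi-likelihood test, with Benjamini-Hochberg adjustment over all genes tested. The members' median log2 fold change was 2.56, and that of all genes tested was 0.07. The CPM of 7 members was higher in both MT libraries than in either MB library, and that of 1 was lower, where 32.9% and 29.2% of the genes tested showed such separation. The 5 called higher include Igf2, and the 7 include Igf2 and Igfbp6. Neither gene would have met the filter on low counts from its MB libraries alone, so their part in these counts is given as a value. The change of state came with a change of medium, and the effects of these cannot be told apart.

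**Figure D1:**
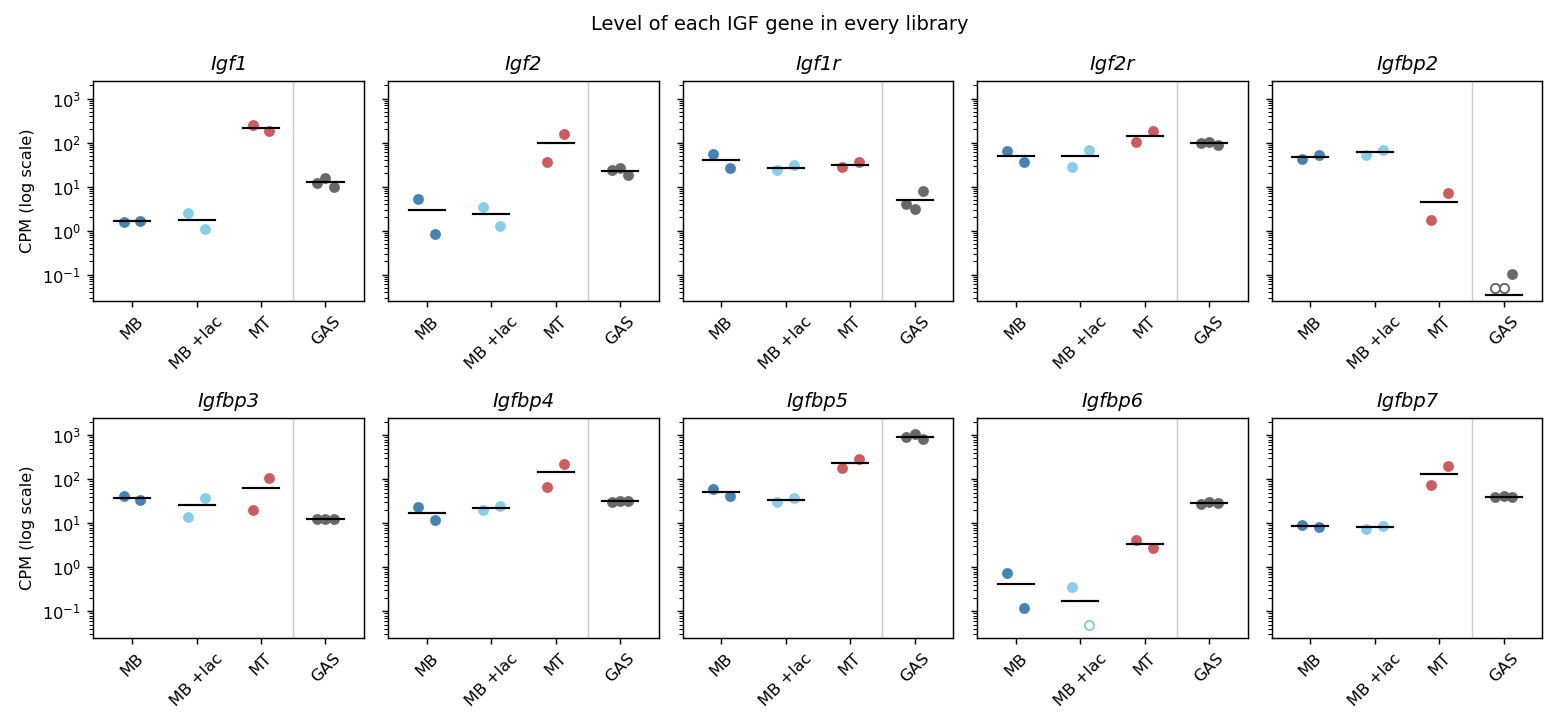
Level of the 10 genes in each of the 9 libraries, in CPM on a log axis, with 1 point per library, a bar at the group mean and open circles near the lower edge for a count of 0. Igf1 and Igf2 stand highest in MT and Igfbp5 and Igfbp6 in GAS. Igfbp2 is high in both MB groups, lower in MT and near 0 in GAS, which is set apart by a vertical line because its library type differed.

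Igf1 encodes the growth factor through which much of growth hormone action is exerted. Its level was 1.59 and 1.69 CPM in MB replicates 1 and 2, and 246 and 182 CPM in MT replicates 1 and 2. Every MT library was thus far above every MB library, and the replicates of each group lay close together. The log2 fold change was 7.03 (SE 0.57, 95% interval 5.77 to 8.30), with an adjusted p of 9.06e-05 in edgeR's test. Igf1 was counted 27 times in the 2 MB libraries together and 4741 times in the 2 MT libraries.

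Igf2 encodes the ligand that is most abundant before birth and that differentiating myoblasts are known to secrete. It was at 5.15 and 0.844 CPM in the MB libraries and at 35.7 and 156 CPM in the MT libraries. The groups did not overlap, but the replicates lay far apart in each. The log2 fold change was 4.90 (SE 0.92, adjusted p = 0.00561, edgeR), and leaving out 1 library at a time gave 6.75 without MB replicate 1, 4.04 without MB replicate 2, 5.58 without MT replicate 1 and 3.42 without MT replicate 2, each still called. Per length, in reads per kilobase of exon, scaled to library size (RPKM), Igf1 stood at 3.98 times Igf2 in MT replicate 1 and at 0.676 times Igf2 in MT replicate 2. The order of the 2 ligands therefore differed between the MT libraries.

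Igf1r, the signalling receptor, was at 54.8 and 26.0 CPM in MB and at 27.4 and 35.7 CPM in MT, so that the groups overlapped. Its log2 fold change was -0.39 (SE 0.52, 95% interval -1.55 to 0.76, adjusted p = 0.642, edgeR), and it was 0.23 without MB replicate 1. Igf2r was at 64.5 and 36.8 CPM in MB and at 105 and 179 CPM in MT. These values did not overlap, but the log2 fold change of 1.45 (SE 0.49) had an adjusted p of 0.0633 in edgeR's test. It was 0.0334 with DESeq2. Per length, Igf2r exceeded Igf1r in every library, by 2.12 to 2.55 times in MB and by 6.90 to 9.05 times in MT.

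**Figure D2:**
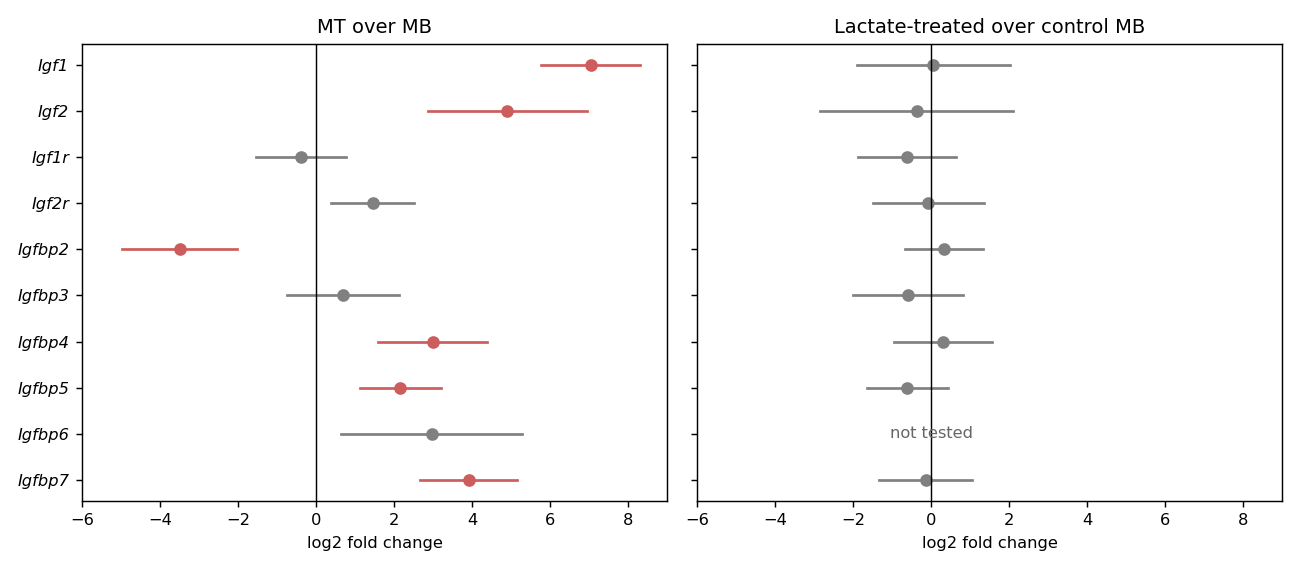
Log2 fold change of each gene in MT over MB (left) and in lactate-treated over control MB (right), with points at the edgeR estimate, lines for the 95% interval and red for genes called. In MT over MB, 5 genes are called higher and Igfbp2 lower, and in the lactate comparison every interval spans 0 and Igfbp6 was not tested.

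Igfbp2, a binding protein with a preference for IGF2, was the only member called lower in MT. It was at 42.2 and 52.3 CPM in MB and at 1.71 and 6.99 CPM in MT, with no overlap. The log2 fold change was -3.50 (SE 0.67, adjusted p = 0.00597, edgeR), with values of -2.81 without MT replicate 1 and -4.87 without MT replicate 2. Its neighbour Igfbp5, the binding protein known to be induced early in the differentiation of cultured myoblasts, was at 59.8 and 42.2 CPM in MB and at 177 and 288 CPM in MT. Both MT libraries were above both MB libraries, with a log2 fold change of 2.16 (SE 0.47, adjusted p = 0.0110, edgeR). The Igfbp5 call was lost without MT replicate 2, where the log2 fold change was 1.68 and the adjusted p 0.0629.

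Igfbp4 encodes a binding protein that inhibits IGF action until the protease PAPP-A cleaves it. It was at 23.3 and 11.7 CPM in MB and at 65.9 and 225 CPM in MT. The groups did not overlap, and the log2 fold change was 2.99 (SE 0.63, adjusted p = 0.00961, edgeR). Here too the call rested on MT replicate 2, without which the log2 fold change was 1.79 and the adjusted p 0.0640. Igfbp7 encodes a secreted protein that binds IGFs weakly and is found in vessel walls and matrix. It was at 9.31 and 8.07 CPM in MB and at 74.2 and 195 CPM in MT, again without overlap. The log2 fold change was 3.91 (SE 0.56, adjusted p = 0.00135, edgeR), and it was 2.99 without MT replicate 2 and still called.

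Igfbp3, the main carrier of IGFs in serum, was at 42.0 and 34.2 CPM in MB and at 20.0 and 109 CPM in MT. The MT libraries thus lay on either side of the MB libraries, and the log2 fold change of 0.69 (SE 0.65, adjusted p = 0.499, edgeR) became -1.04 without MT replicate 2. Igfbp6, which prefers IGF2 as its ligand, had 6 and 1 counts in the MB libraries and 55 and 22 in the MT libraries. Its levels did not overlap, but its log2 fold change of 2.96 (SE 1.05) had an adjusted p of 0.0759 in edgeR's test. It was 4.66 without MB replicate 1 and 2.06 without MB replicate 2, with adjusted p of 0.465 and 0.686. Igfbp6 met the filter on low counts through its MT libraries only, and Igf2, with 42 and 7 counts in MB, would not have met it from its MB libraries alone.

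Set per length, the make-up of the binding protein transcripts differed between the groups. The summed RPKM of the 6 genes was 59.8 and 55.7 in MB, 117 and 302 in MT, and 203 to 254 in GAS. Igfbp2 made up 38.1% and 50.8% of this sum in the MB libraries, followed by Igfbp3 with 22.4% and 19.6%. In MT the leading gene was Igfbp7, with 52.5% and 53.6%, while Igfbp2 made up 0.794% and 1.26%. In GAS it was Igfbp5, with 66.0% to 71.3%. The shares of Igfbp2 in MB, Igfbp7 in MT and Igfbp5 in GAS did not overlap with the shares of the same gene in the other 2 of these groups. They were not tested, and a rise in the share of 1 gene lowers the others.

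**Figure D3:**
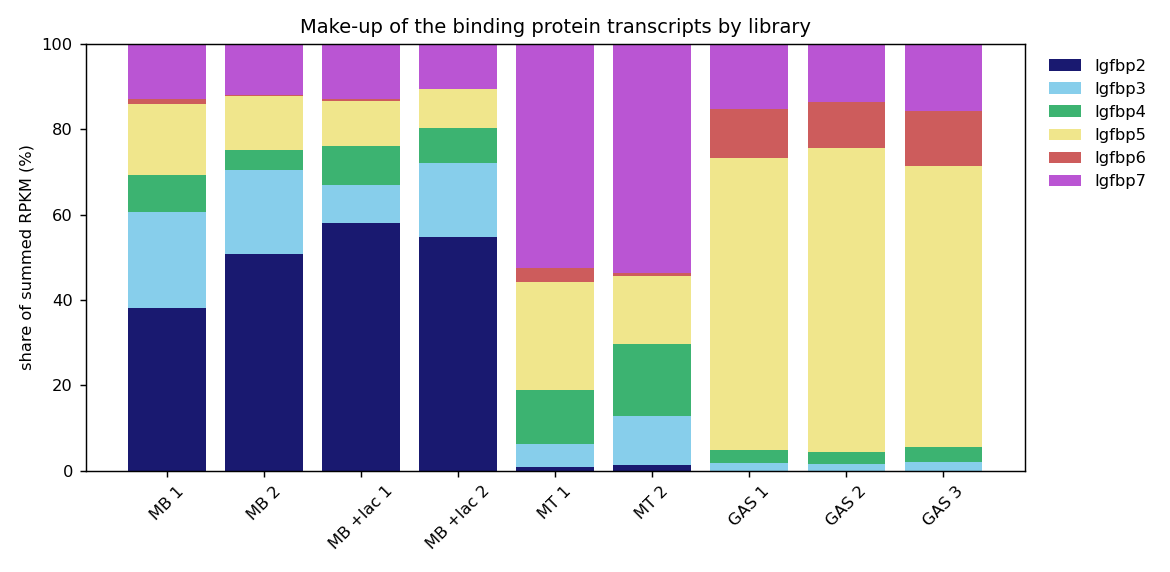
Share of each binding protein gene in the summed RPKM of the 6 genes, in percent, with 1 stacked bar for each of the 9 libraries. Igfbp2 takes the largest share in the 4 MB libraries, Igfbp7 in the 2 MT libraries (52.5% and 53.6%) and Igfbp5 in the 3 GAS libraries (66.0% to 71.3%).

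In GAS, 8 of the 10 genes had a mean RPKM over 1. Igfbp5 was the highest at 155 ± 24.1 RPKM (SD, n = 3), which ranked 213 among the 19415 genes with a count in GAS. Igfbp7 followed with 33.3 ± 1.28 RPKM, then Igfbp6 with 26.1 ± 0.929 RPKM. The ranges of these 3 genes over the libraries did not overlap. Igf2r stood at 10.3 ± 0.803 RPKM and Igfbp4 at 7.08 ± 0.0998 RPKM, also apart from their neighbours in this order. Igfbp3, at 3.977 ± 0.1002 RPKM, and Igf2, at 3.96 ± 0.752 RPKM, did not differ beyond their spread. Igf1 was lower at 1.28 ± 0.311 RPKM and Igf1r lower still at 0.299 ± 0.146 RPKM. Igfbp2 had 0, 0 and 2 counts in the GAS libraries, at or below the 3 counts that a count of 0 allows.

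Side by side with the cultured cells, the members fell into different orders. Igf1 had 12.3, 15.9 and 9.81 CPM in the 3 GAS libraries, which lies above MB and below MT. Igf2 (23.6, 26.5 and 18.0 CPM), Igf2r (96.6, 102 and 87.5 CPM), Igfbp4 (30.8, 31.7 and 31.4 CPM) and Igfbp7 (40.4, 41.8 and 38.7 CPM) likewise lay between the MB and the MT libraries. Igfbp5 (902, 1089 and 804 CPM) and Igfbp6 (28.1, 30.1 and 28.9 CPM) were above every cultured library. Igf1r (4.11, 3.14 and 7.79 CPM), Igfbp3 (12.2, 12.8 and 12.3 CPM) and Igfbp2 were below every cultured library. These are levels from different library types, and no fold or test is given for them.

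Insr encodes the insulin receptor, which can pair with IGF1R to form hybrid receptors. It was at 90.1, 90.5 and 87.2 CPM in GAS, at 13.6 and 3.25 CPM in MB and at 10.6 and 11.8 CPM in MT. Per length, Insr stood at 13.7 to 35.2 times Igf1r in the GAS libraries and at 0.153 to 0.471 times Igf1r in the 6 cultured libraries. The order of these receptors within a library was thus opposite in the tissue and in culture. Between MT and MB, the log2 fold change of Insr was 0.36 (SE 0.73, adjusted p = 0.773, edgeR).

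The other genes of the pathway numbered 55, of which 48 were tested in MT against MB. In edgeR's test 6 of them were higher, a share close to the 11.0% of all genes, and 0 were lower, where 6.86% of all genes were. At an unadjusted p under 0.05 these counts were 8 and 1, the latter being Igf2bp3, whereas 32.5% of all genes tested had such a p in either direction. DESeq2 called 0 lower. Their median log2 fold change was 0.37. Of the 6 genes called, 4 act on the binding proteins or their proteases outside the cell. That list held 9 genes, of which 3 had too few counts to be tested. Pappa, Pappa2 and Stc1 met the filter on low counts through their MT libraries only, so that a gene of this kind had to differ to be tested, and their calls are given as values.

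Pappa encodes the metalloprotease PAPP-A, which cuts IGFBP4 and IGFBP5, and Pappa2 encodes its relative PAPP-A2, which cuts IGFBP3 and IGFBP5. Pappa had no count in either MB library and 215 and 24 counts in the MT libraries, at 16.01 and 3.05 CPM. The mean of MT was at least 25.9-fold higher than the level that 3 counts would give in an MB library (adjusted p = 0.00587, edgeR). Pappa2 had 2 and 0 counts in the MB libraries and 101 and 58 in the MT libraries (adjusted p = 0.00771, edgeR), a ratio of 61.4 with a 95% counting interval of 16.7 to 512. Stc1, which encodes stanniocalcin-1, an inhibitor of PAPP-A, was at 0.490 and 0.241 CPM in MB and at 18.99 and 8.78 CPM in MT. All 3 genes were thus near or at 0 in MB and detected in both MT libraries, with a log2 fold change for Stc1 of 5.22 (SE 0.90, adjusted p = 0.00353, edgeR). With at least 10 counts required in every library none of the 3 was tested. Htra1, a secreted serine protease that can cleave IGF binding proteins, was at 60.2 and 57.6 CPM in MB and at 780 and 379 CPM in MT. Its log2 fold change was 3.32 (SE 0.57, adjusted p = 0.00344, edgeR). The tested genes of the same list that were not called were Stc2 and Adam12. Stc2 had a log2 fold change of -0.95 (SE 0.65, adjusted p = 0.340, edgeR) and Adam12 one of 1.77 (SE 0.89, adjusted p = 0.196, edgeR).

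Inside the cell, 2 of the 11 genes of the PI3K and Akt list were called, both of which encode regulatory subunits of PI3K. Pik3r3 was at 5.88 and 14.0 CPM in MB and at 49.1 and 73.9 CPM in MT, with a log2 fold change of 2.64 (SE 0.54, adjusted p = 0.00834, edgeR). Pik3r1 was at 6.62 and 13.6 CPM in MB and at 45.3 and 43.9 CPM in MT, with a log2 fold change of 2.17 (SE 0.52, adjusted p = 0.0175, edgeR). For both genes all MT values were above all MB values, but Pik3r1 was not called without MT replicate 1. The adaptor gene Irs1 was at 89.0 and 53.9 CPM in MB and at 18.9 and 51.1 CPM in MT (log2 fold change -1.09, SE 0.54, adjusted p = 0.196, edgeR). Irs2 was at 3.55 and 2.89 CPM in MB and at 2.08 and 3.94 CPM in MT (log2 fold change -0.13, SE 0.80, adjusted p = 0.929, edgeR). None of the 7 adaptor genes tested was called, nor any of the 10 in the mTOR list, the 5 in the FoxO and GSK3 list or the 5 of the growth hormone axis. The 3 genes of the IGF2 mRNA binding proteins, Igf2bp1, Igf2bp2 and Igf2bp3, had log2 fold changes of -0.81, -0.93 and -1.27, and none was called.

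**Figure D4:**
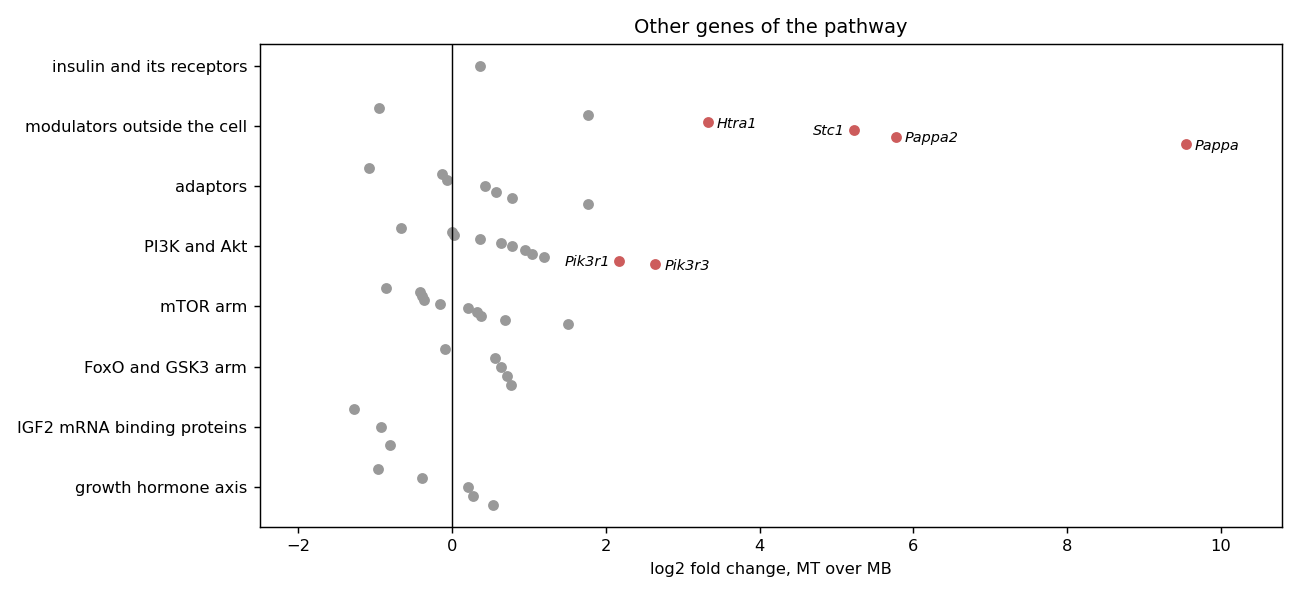
Log2 fold change in MT over MB of the 48 other pathway genes tested, with 1 point per gene, grouped by list, and red for the 6 called. The 4 called modulators outside the cell lie farthest to the right, and Pappa's position depends on the model's prior count because it had no count in MB.

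At the loci of the members, H19 was at 450 and 380 CPM in MB, 1042 and 1154 CPM in MT and 470 to 983 CPM in GAS. Its log2 fold change in MT over MB was 1.39 (SE 0.52, adjusted p = 0.0890, edgeR), next to 4.90 for Igf2. Igf2os had 5 and 0 counts in MB and 24 and 12 in MT (adjusted p = 0.205, edgeR). Airn, the imprinted noncoding RNA that overlaps Igf2r on the opposite strand, was at 0.613 and 1.33 CPM in MB, 7.15 and 7.76 CPM in MT and 6.85 to 7.72 CPM in GAS. It was called higher in MT (log2 fold change 2.95, SE 0.82, adjusted p = 0.0314, edgeR), while Igf2r itself was not called. With 5 and 11 counts in MB, Airn would not have met the filter on low counts from its MB libraries alone. Airn and Igf2r share no annotated exon bases.

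Some markers of other cells were also higher in MT than in MB, and others were not. The summed level of the 7 fibroblast markers (Pdgfra, Dcn, Lum, Col1a1, Col1a2, Col3a1 and Thy1) was 475 and 236 CPM in MB and 24064 and 14565 CPM in MT replicates 1 and 2. It was 579 to 678 CPM in GAS. Nearly all of the MT sum came from Col1a1 (13116 and 1762 CPM) and Col3a1 (10497 and 12688 CPM), and of these only Col1a1 was higher in replicate 1. Among the rest, Dcn (408 and 110 CPM) and Col1a2 (31.9 and 2.16 CPM) were also higher in replicate 1. So were Lum (6.03 and 0.763 CPM) and Pdgfra (5.66 and 2.54 CPM). Dcn in MT replicate 1 was above its range of 230 to 314 CPM in GAS. The other 5 markers had higher means in GAS than in MT, with Dcn at 266 and 259 CPM, Col1a2 at 105 and 17.0 CPM, Pdgfra at 23.3 and 4.10 CPM and Lum at 18.7 and 3.40 CPM in GAS and MT. Thy1 had 1 and 0 counts in MT, against a mean of 7.44 CPM in GAS. Of the 5 tested in MT against MB, 4 were called higher in MT and Pdgfra was not. Of the 4 called, Col1a1 (8 and 4 counts in MB) and Dcn met the filter on low counts through their MT libraries only. Genes of this kind had to differ to be tested, and their calls are given as values. Lum was at 0 in MB, Dcn had 0 and 2 counts there, and Dcn reached 408 and 110 CPM in MT. MT replicate 1 had the higher level of Igf1 and Igfbp6 and the lower level of the other members. A link of these levels to the marker sums was not tested. The summed adult muscle fiber markers were 1671 and 5302 CPM in MT replicates 1 and 2. Most of this sum came from Mylpf (1140 and 4302 CPM), while Myh4 was at 128 and 141 CPM. Smooth muscle and pericyte markers summed to 13.7 and 8.92 CPM in MB and 121 and 211 CPM in MT, of which Pdgfrb alone gave 105 and 209.8 CPM. Rgs5 of the same list was at 2.70 and 4.22 CPM in MB and at 10.3 and 0.127 CPM in MT and was not called. Macrophage markers summed to 1.72 and 1.08 CPM in MB and 18.99 and 4.07 CPM in MT. Endothelial markers summed to 0.490 and 0.241 CPM in MB, to 19.7 and 0.254 CPM in MT and to 146 to 163 CPM in GAS, with Cdh5, Kdr, Tek and Cldn5 at 0 in MB. Adipocyte markers were at 0 in MB and at most 0.670 CPM in MT, and Schwann cell markers at most 0.241 CPM in MB and 3.43 CPM in MT. The macrophage, endothelial, adipocyte and Schwann sums were higher in MT replicate 1, the library with a count for 28599 genes, than in replicate 2. The part of these cell types in the levels of the IGF genes was not tested. In bulk RNA, fewer cells of a type and less RNA per cell cannot be told apart.

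**Figure D5:**
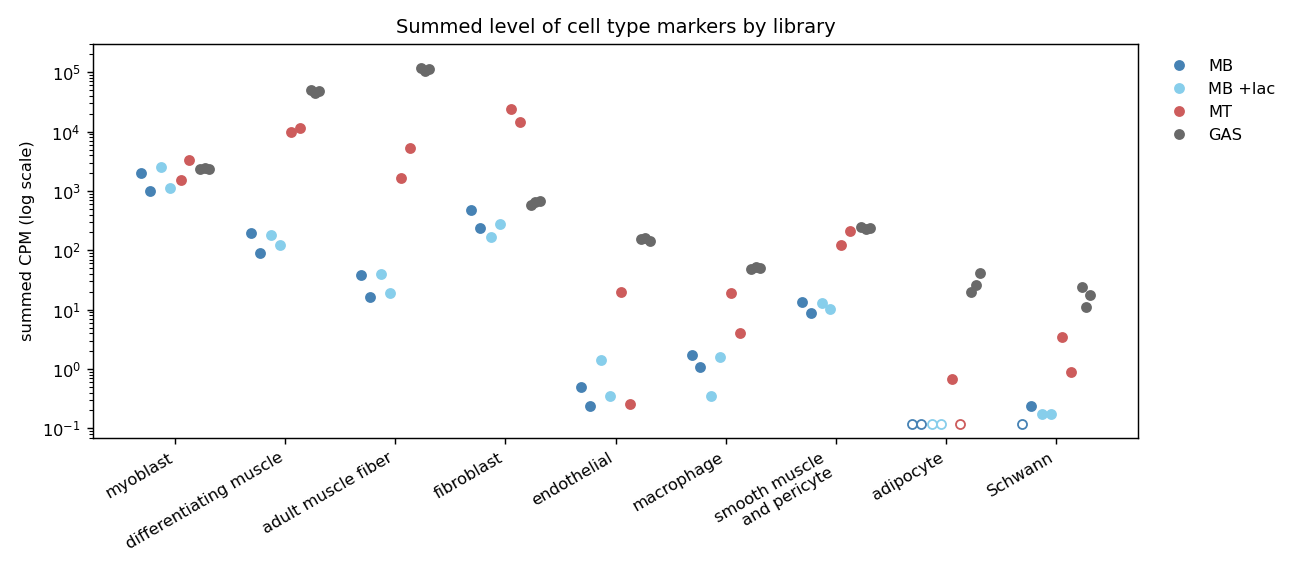
Summed CPM of each list of cell type markers in the 9 libraries, on a log axis, with 1 point per library and open circles at the lower edge for a sum of 0. The fibroblast list stands at 14565 to 24064 CPM in MT, above all other groups, through Col1a1 and Col3a1, while its other 5 markers had higher means in GAS, and the endothelial, macrophage, adipocyte and Schwann lists are highest in GAS.

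The lactate comparison asks whether 10 mM sodium-L-lactate, a source of the lactyl groups that can be attached to histones, changed these genes in myoblasts. Of the 10 members 9 were tested, and 0 passed an unadjusted p under 0.01 with an absolute log2 fold change over 0.5 in edgeR's test, as did 0% of the 11804 genes tested. The study, which used edgeR with these thresholds, does report some genes past them, and the cause of this difference was not tested. At an unadjusted p under 0.05 (edgeR) the count of members was also 0, but only 5 of the 11804 genes tested had such a p. DESeq2 called 0 members at the first threshold, where it called 1 of all genes. With so few genes passing, these counts of 0 tell nothing particular to the members. Every adjusted p of a member was 1. The control libraries are those used for the comparison of MT with MB.

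The ligands were low with and without lactate. Igf1 was at 2.46 and 1.07 CPM in lactate-treated replicates 1 and 2, around the 1.59 and 1.69 CPM of the controls (log2 fold change 0.06, 95% interval -1.90 to 2.02). Igf2 was at 3.51 and 1.24 CPM (log2 fold change -0.37, interval -2.84 to 2.10). For both genes the intervals were wide enough to hold a 3-fold change in either direction, and the groups overlapped. Igf1r was at 23.4 and 30.4 CPM (log2 fold change -0.61, interval -1.86 to 0.63) and Igf2r at 27.9 and 69.2 CPM (-0.08, interval -1.50 to 1.34), both overlapping with their controls.

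Of the binding proteins, the range of treated libraries lay apart from that of the controls for Igfbp2, which was higher, and Igfbp5, which was lower. Among all genes tested, 4.28% were higher and 6.84% lower without overlap. Igfbp2 was at 52.35 and 68.3 CPM with lactate against 42.2 and 52.31 CPM in the controls, so that the nearest values nearly met (log2 fold change 0.32, SE 0.41, interval -0.67 to 1.32). Igfbp5 was at 30.6 and 37.5 CPM against 59.8 and 42.2 CPM (log2 fold change -0.61, SE 0.43, interval -1.65 to 0.42, unadjusted p = 0.200, edgeR). For these genes the sign was opposite to that of MT over MB, which shares the control libraries, and neither passed the lactate test. Igfbp3 (13.9 and 37.2 CPM, log2 fold change -0.60), Igfbp4 (19.7 and 24.2 CPM, 0.30) and Igfbp7 (7.55 and 8.53 CPM, -0.14) overlapped with their controls. Igfbp6 had 2 and 0 counts with lactate and 6 and 1 without, too few to be tested. None of the 44 other pathway genes tested passed the same threshold, nor an unadjusted p under 0.05, which 5 of all genes tested did (edgeR). Their median log2 fold change was 0.0003. The fibroblast marker sum was 170 and 277 CPM with lactate, against 475 and 236 CPM without.

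The genes whose pattern over the 6 cultured libraries was most like that of a member are given as a description, from Pearson's r of log2(CPM + 1) over 8512 genes. For Igf1 they were Scp2, Lysmd4 and Gpr108 (r = 0.999, 0.999 and 0.999), for Igf2 Iffo1 and Scml4 (0.999 and 0.999), and for Igfbp5 Sparc, Fam160a1 and Kctd7 (0.998, 0.996 and 0.995). Such values were common. An r over 0.95 was reached by 497 genes for Igf1, by 341 for Igf2 and by 369 for Igfbp5, since the 6 points share the split between MT and the other libraries.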

How the data were processed

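Counts of reads per gene were deposited by the authors, 1 file per library; per the labels and the study's methods, reads were trimmed with Trim Galore 0.6.6, aligned to mm10 with HISAT2 2.2.1 and counted with featureCounts of Subread 2.0.1. The annotation, strand setting and treatment of multi-mapping reads are not given in the sources used here. Groups came from the labels. Counts were tested with edgeR 4.0.16 (quasi-likelihood, TMM, filterByExpr, Benjamini-Hochberg over all genes), with MT and MB, or treated and control MB, in a fit of their own. The script was tested on simulated data. CPM used TMM factors over the 6 cultured libraries or the 3 GAS libraries, and RPKM the union of GENCODE release 21 exons of each gene. DESeq2 1.42.0, RLE size factors, other filters, a replicate block, a joint fit and leaving out each library were alternatives. A fit with crossed replicate numbers and fits without CT010467.1 were chosen after seeing the data. Intervals of counts cover counting error only. The 10 genes and the lists of pathway genes and markers were chosen with earlier results of these data known. Named were all members, Insr, Irs1, Irs2, pathway genes called in MT against MB (up to 16, by absolute log2 fold change), the locus genes, and 3 most like genes (mean of at least 10 CPM) for each of Igf1, Igf2 and Igfbp5, of which 1 is not reported here.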

Additional observations from a re-analysis of the deposited data

How the results depend on the processing

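Without MT replicate 2, the log2 fold change in MT over MB was 1.79 for Igfbp4 and 1.68 for Igfbp5, against 2.99 and 2.16 in the report. The count of members higher in MT was 5 in the report. It was 5 or 6 in the alternatives that left out no library, and the 6 included Igf2r. Over all genes, 766 of 10648 tested were called higher with at least 10 counts in every library. Without a filter 1382 of 30070 were, and with DESeq2 1729 of 12921, against 1425 of 12921 in the report. Igf2r passed in 5 alternatives, with adjusted p of 0.0494 (at least 10 counts in every library), 0.0391 (no filter), 0.0334 (DESeq2), 0.0412 (crossed numbers) and 0.0166 (without MB replicate 1), against 0.0633 in the report and a highest value of 0.346. Igf2 and Igfbp6 did not enter the fit with at least 10 counts in every library. Igfbp2 was the 1 member called lower in all 12 alternatives. Pathway genes called higher numbered 3 with at least 10 counts in every library, where fewer genes were tested. They numbered 6 to 8 in the other fits that left out no library. Pathway genes called lower numbered 0 to 2 with 1 library left out: 2 (Igf2bp3 and Socs2) without MB replicate 1 and 1 (Irs1) without MB replicate 2. In such fits the lone library of a group is assumed to vary like the other group. The share of all genes called also changed with the library left out, so counts of calls in these fits are not compared. The cause of these changes was not tested.

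The log2 fold change in MT over MB changed sign for Igf1r (-0.96 to 0.23 with 1 library left out) and Igfbp3 (-1.04 to 1.43). With lactate it changed sign for Igf1 (-0.60 to 0.51), Igf2 (-1.24 to 1.53, and 0.16 without MB + lactate replicate 2), Igf1r (-1.05 to 0.0867), Igf2r (-0.93 to 0.47, and 0.43 without MB replicate 1), Igfbp4 (-0.11 to 0.95) and Igfbp7 (-0.27 to 0.0367). No member passed the lactate threshold in any of 11 alternatives. Over all genes, that threshold was passed by 176 higher without MB replicate 2 and by 19 higher without MB replicate 1, against 0 in the report.

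The labels give MT, MB and MB + lactate the replicate numbers 1 and 2 and nothing more, so the samples share only a number. Deviations from the group means of same-numbered libraries correlated at -0.13 for MT with MB and at 0.70 for lactate-treated with control MB. With the replicate block, 5 members were called higher and 1 lower in MT, 7 pathway genes higher and 0 lower, and 0 members passed with lactate. Over all genes, 7 higher and 6 lower passed the lactate threshold with this block, against 0 in the report, where the fit had no block. An unadjusted p under 0.05 (edgeR) was reached by 166 genes with the block and by 5 without it. With crossed numbers, 6 members were higher and 1 lower. RPKM in GAS computed over the longest transcript was 1.80 for Igf1, 4.80 for Igf2, 5.14 for Igfbp3 and 8.17 for Igfbp4. With 2 libraries a group, small changes could not be detected.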
